A study of Xenopus laevis with 6 samples.

Results

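T-box factors are transcription factors that share a DNA-binding domain, the T-box. This account covers 10 of their genes in Xenopus laevis, chosen by symbol in the deposited gene table: tbxt, tbx1, tbx2, tbx3, tbx5, tbx6, tbx15, tbx18, tbx20 and eomes. The species is an allotetraploid and keeps most genes as a pair of homeologs, L and S, one from each ancestral subgenome. The table held 18 homeologs of these symbols among 49281 genes. Both homeologs of 8 symbols were present, and tbx6 and tbx20 are described from tbx6.S and tbx20.L alone.

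The samples were explants of the animal pole, the pluripotent upper part of the blastula, from wild type embryos. One group of 3 libraries was given K02288, which blocks BMP receptors, and CHIR99021, which activates Wnt signalling by inhibiting GSK3, from stage 9 until stage 17. The other group of 3 received DMSO, the vehicle, over the same period, and all 6 were taken at stage 17. By their labels the treated explants are neural crest and the DMSO explants epidermal, and doses, clutches and explant numbers are not stated; the study asked whether both compounds together bring about a neural crest state.

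T-box genes sit at several branch points of the early vertebrate embryo. tbxt (Brachyury) and eomes act in the forming mesoderm and endoderm, tbxt is a direct target of Wnt and FGF signalling, and tbx6 acts in paraxial mesoderm. tbx2 and tbx3 are repressors that depend on BMP signalling in several tissues, tbx5, tbx18 and tbx20 act in the heart, tbx1 in the pharyngeal arches, and tbx15 in mesenchyme of the head and limb. Many members switch fate in a dose-dependent way, and a cell type is often recognised by which of them it expresses.

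Gene reads numbered 33706389 to 43155031 per library. Values below are normalized counts, that is reads divided by a size factor of the library, and 1 read was worth 0.889 to 1.24 of them. They are not divided by transcript length and therefore compare libraries, not genes. The libraries of a group carry the letters a, b and c, and values are listed in that order. Marker lists describe the labelled fates. They were chosen with earlier results of these data known and are no independent check of the labels. Marker counts in this paragraph stand beside 26.1% of all genes tested higher and 29.7% lower. Of 20 tested homeologs of neural crest markers, 18 were higher in treated explants and none was lower. Among them, foxd3.S was at 0 in each DMSO library and at 3129 to 4674 in treated libraries. Of 19 epidermis markers, 14 were lower and 3 higher (8 and 1 against DMSO library c alone). Most genes listed as neural plate markers rose as well, with 11 of 14 tested homeologs higher and none lower. The rise was thus not limited to the genes listed for neural crest. The 11 include both copies of nrp1 (log2 fold 5.35 and 9.52) and of zic2 (8.45 and 6.38). Whether these mark neural plate rather than neural crest in these explants was not tested. The 3 that were not called were sox2.L (log2 fold 0.79), sox3.L (-1.08) and sox3.S (0.06). The summed epidermis markers were highest in treated library a, at 651061 against 362583 and 419694 in b and c.

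tbx2 and tbx3 were nearly lost from the treated explants, whereas tbx15 was higher there, and the ratio of the L to the S copy of tbxt fell, although neither copy was called by itself. Genes were tested with limma on log2(normalized count + 1) where the mean over the 6 libraries was at least 10, and called at a Benjamini-Hochberg adjusted p under 0.05 over all 22932 genes tested. Of the 18 homeologs 11 were tested. Of these, 8 were called, beside 55.8% of all tested genes: 6 were lower and 2 higher, beside 29.7% of all genes lower and 26.1% higher. The authors' deposited table calls 10 of the 18 at its own adjusted p under 0.05, namely the 8 called here, tbxt.L and tbx5.L. Of the 11 members tested here, all but tbxt.S and tbx1.L passed there, beside 56.3% of the genes tested here. In 5 of the 8 called homeologs the mean of 1 group was under 10, so they entered the test through the group where they were high, and the count is no measure of how the family behaved. In bulk RNA, fewer cells that express a gene and less RNA per cell cannot be told apart.

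**Figure D1:**
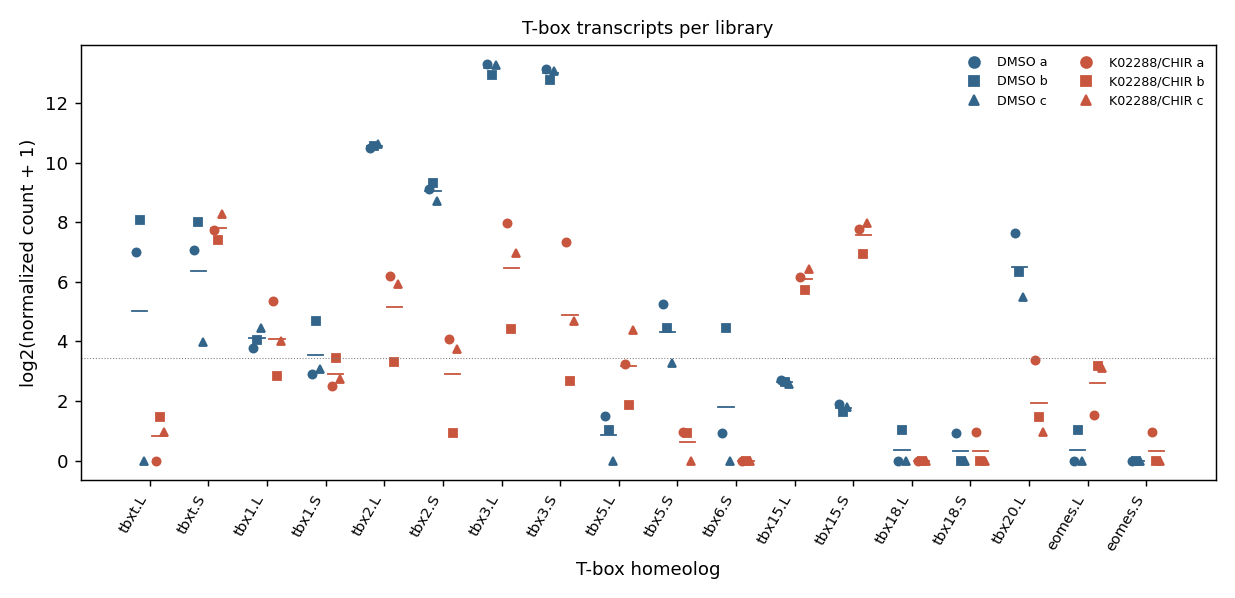
Level of each T-box homeolog on a log2(normalized count + 1) axis, with 1 point per library, short bars for the mean of the 3 libraries of a group, and a dotted line at a normalized count of 10. The tbx2 and tbx3 homeologs stood high in the DMSO libraries and low in the treated ones, and both tbx15 homeologs the other way round.

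tbx3 encodes a repressor that keeps cells in a progenitor state in several organs. tbx3.L was at 10126, 7861 and 9975 normalized counts in the DMSO libraries and at 253, 20.5 and 125 after treatment. tbx3.S was at 9140, 7125 and 8692 with DMSO and at 161, 5.34 and 24.8 after treatment. The groups lay far apart for both copies, and treated library a was the highest and b the lowest of the treated libraries. The log2 fold was -6.72 ± 0.82 for tbx3.L (SE, n = 3 per group; limma adjusted p = 0.000702) and -8.12 ± 1.04 for tbx3.S (limma adjusted p = 0.000843). Means fell from 9321 ± 1266 to 133 ± 116 (SD) for tbx3.L and from 8319 ± 1058 to 63.8 ± 84.9 for tbx3.S.

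tbx2, the closest relative of tbx3 and likewise a repressor, fell as well. tbx2.L was at 1455, 1524 and 1596 in the DMSO libraries and at 72.6, 8.89 and 60.1 after treatment. tbx2.S was at 557, 645 and 417 with DMSO, and the treated libraries held 17, 1 and 13 reads of it. Neither copy overlapped between the groups, and library b was again the lowest. The log2 fold was -5.43 ± 0.72 for tbx2.L and -6.14 ± 0.82 for tbx2.S (limma adjusted p = 0.000969 for both).

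tbx20.L and tbx5.S, homeologs of transcription factors of the heart, were lower after treatment, and tbx5.L is described with its pair further on. tbx20.L was at 199, 78.7 and 44.5 with DMSO and at 9.42, 1.78 and 0.954 after treatment. Its groups did not overlap, and its log2 fold was -4.55 ± 0.82 (limma adjusted p = 0.00326). tbx5.S was at 37.7, 20.7 and 8.65 in the DMSO libraries and at 0.942, 0.889 and 0 in the treated ones, which is 68 reads against 2. Its log2 fold was -3.70 ± 0.70 (limma adjusted p = 0.00413), and the ratio of the group totals was 38.4 (95% exact interval 10.2 to 323, counting error only). Both genes were highest in DMSO library a and lowest in DMSO library c.

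The share of the DMSO mean that was left differed between the treated libraries. In library a 4.76% of tbx2.L, 2.97% of tbx2.S, 2.71% of tbx3.L and 1.94% of tbx3.S was left. In library b the values were 0.583%, 0.165%, 0.219% and 0.0641%, and in library c 3.94%, 2.30%, 1.34% and 0.298%. All 4 thus shared the order a, c, b, which is also the order of the summed epidermis markers given above. Single markers of that list differed in order: krt70.S, a keratin gene, was at 284346, 168558 and 203746 after treatment, but krt12.4.S, another keratin gene, at 67579, 3438 and 1906 and itln1.L, a secreted lectin gene, at 18500, 214 and 83.9. Whether epidermal cells left in treated library a account for its higher tbx2 and tbx3 was not tested. Without treated library a the log2 folds were -9.34 for tbx3.S, -7.48 for tbx3.L, -6.73 for tbx2.S and -5.95 for tbx2.L. Without treated library b they were -7.00, -5.70, -5.14 and -4.51 for the same homeologs, and each was still called.

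**Figure D2:**
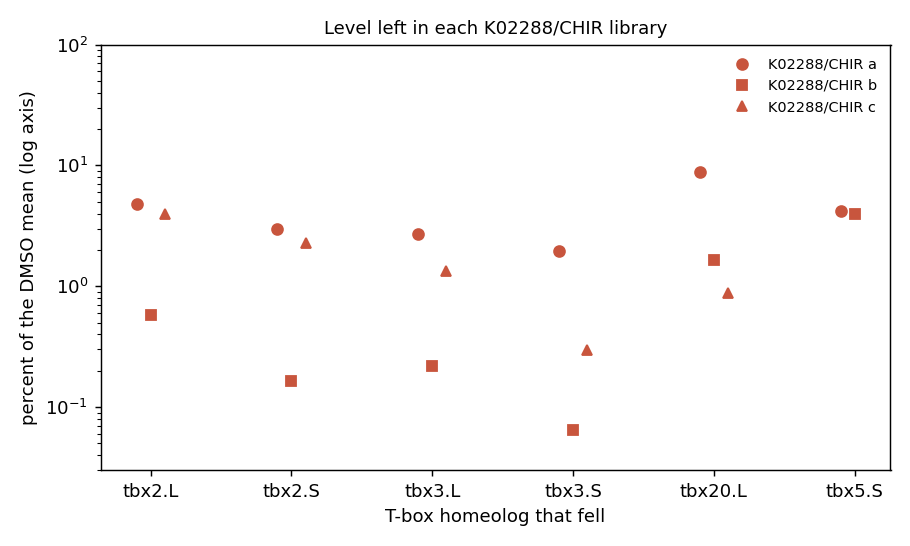
Percent of the DMSO mean left in each treated library, on a log axis, for the 6 T-box homeologs that fell, with 1 point per library. Library b lay below library a for the tbx2 and tbx3 homeologs and tbx20.L, while tbx5.S had 1 read in each of the 2 libraries and is not drawn for library c, where it was 0.

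tbx15, which patterns head and limb mesenchyme in the mouse, was the gene whose homeologs were called higher at the mean filter of 10; tbx5.L and eomes.L, under that filter, are given further on. tbx15.S was at 2.76, 2.07 and 2.47 in the DMSO libraries, or 7 reads in all, and at 218, 123 and 249 after treatment. tbx15.L was at 5.51, 5.18 and 4.94 in the DMSO libraries and at 70.7, 51.6 and 84.9 in the treated ones. The groups did not overlap for either copy, and treated library b was the lowest of the 3. The log2 fold was 5.79 ± 0.41 for tbx15.S (limma adjusted p = 0.000129) and 3.47 ± 0.38 for tbx15.L (limma adjusted p = 0.000488).

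tbxt (Brachyury), the regulator of mesoderm and tail outgrowth, gave a different picture for each homeolog. tbxt.L was at 128, 270.3 and 0 with DMSO and at 0, 1.78 and 0.954 after treatment. tbxt.S was at 135, 255 and 14.8 in the DMSO libraries and at 211, 168 and 307 in the treated ones. Both copies were high in DMSO libraries a and b and low in DMSO library c, and in the treated libraries tbxt.L had at most 2 reads while tbxt.S had 189 to 322. tbxt.S overlapped between the groups and was not called (log2 fold 1.44 ± 0.96, limma adjusted p = 0.24).

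For tbxt.L the DMSO libraries held 400 reads in all and the treated ones 3, which is a ratio of 151 (95% exact interval 51.2 to 733, counting error only). It was not called by limma, its log2 fold being -4.22 ± 2.01 (limma adjusted p = 0.114); DMSO library c held no read. The edgeR test gave an adjusted p of 0.0226, DESeq2 one of 0.00595, and limma one of 0.0019 when DMSO library c was left out. Over 17 other settings of the test it ranged from 0.0019 to 0.308 and passed in 3. The authors' deposited table gives an adjusted p of 0.00724. Without DMSO libraries a and b, a choice made after the values were seen, the log2 fold was 0.81 ± 0.83 (limma adjusted p = 0.5).

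A further Brachyury gene outside the chosen symbols, tbxt.2.S, lies next to tbxt.L in the RefSeq gene table of assembly Xenopus_laevis_v10.1, with 0 protein-coding genes between them. The suffixes of these neighbours differ, although L and S stand for different subgenomes, and the reason was not tested. The L to S comparison of tbxt takes the suffixes as given. tbxt.2.S was named after its values were seen. It was at 23.0, 29.0 and 1.24 in the DMSO libraries and at 0 in each treated library, 54 reads against none. The pooled reads were thus at least 20.3-fold lower against a floor of 3 counts over the group, and DMSO library c held 1 of the 54. Reads that align to more than 1 place are absent from these counts, so levels of copies that resemble each other are uncertain.

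Other mesodermal T-box genes varied widely among the DMSO libraries. tbx6.S, a gene of paraxial mesoderm, had 1, 20 and 0 reads with DMSO and none after treatment. Its DMSO total of 21 reads makes it at least 7.90-fold lower after treatment against the same floor, and 20 of those reads came from library b. A gene with no symbol of its own that the table marks as provisional tbx6 was at 24.8, 55.9 and 18.5 in the DMSO libraries and at 5.65, 1.78 and 0 in the treated ones. It was called lower, at -3.53 ± 0.82 (limma adjusted p = 0.00964), and was chosen after its values were seen. vegt.L and vegt.S are copies of a T-box gene that specifies endoderm and mesoderm in Xenopus. They were at 42.2 and 71.6 in DMSO library a, at 107 and 182 in b, and at 7.41 and 0 in c. In the treated libraries vegt.L was at 4.71 to 38.2 and vegt.S at 2.83 to 8.89. Neither was called (limma adjusted p = 0.444 for vegt.L and 0.408 for vegt.S). vegt.S passed with DESeq2 (adjusted p = 0.0115) and with limma when DMSO library c was left out (adjusted p = 0.00554; 0.00554 to 0.861 over its other settings).

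The order b, a, c of the DMSO libraries was thus shared by tbxt, tbx6 and vegt. The 45 homeologs of the list of tailbud and paraxial mesoderm genes summed to 3238, 6708 and 1066 with DMSO and to 6129, 9462 and 6441 after treatment. The 23 homeologs of the skeletal muscle markers summed to 1467, 1577 and 2317 with DMSO, of which tnni2.L, a troponin gene, made up 1380, 1383 and 2222, and to 195 to 233 after treatment. Of the 7 tested, 2 were lower and 1 higher. This count and that of the notochord markers below stand beside 29.7% of all genes lower and 26.1% higher. The defining muscle regulators myod1.L and myod1.S were at 0 to 4.14 in the DMSO libraries. The 10 homeologs of the notochord markers summed to 28.4 to 44.5 with DMSO and 326 to 547 after treatment, with 2 of 3 tested higher. Those 2 are nog.L and nog.S, copies of a BMP antagonist gene, at 60.3 to 117 and 207 to 416 after treatment. col9a1.L, the other one tested, had a log2 fold of 0.21 ± 0.60 (limma adjusted p = 0.786). foxa4.L and foxa4.S were at 0 to 1.24 in the 6 libraries, and shh.S, a notochord signal, had 3 reads, all in DMSO library b. The part of mesodermal cells in the tbxt values of DMSO libraries a and b was not tested.

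**Figure D3:**
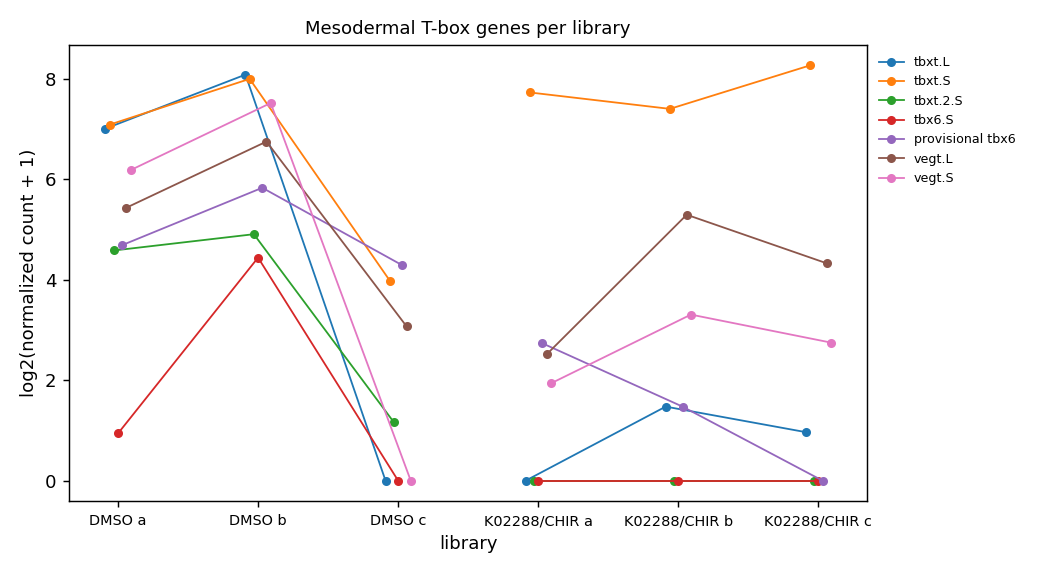
Levels of T-box genes of the mesoderm on a log2(normalized count + 1) axis in the 6 libraries, where lines join the libraries of 1 group for a gene and the order of the libraries carries no meaning. The genes drawn peaked in DMSO library b among the controls, and tbxt.S was at 168 to 307 normalized counts in the treated libraries.

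The remaining members had few reads. eomes.L, which starts the mesoderm and endoderm programmes, had 0, 1 and 0 reads in the DMSO libraries and 2, 9 and 8 in the treated ones, a ratio of 16.8 (95% exact interval 2.67 to 699). With a mean of at least 1 in place of 10 it passed (log2 fold 2.26, limma adjusted p = 0.024), and with no filter at an adjusted p of 0.0222. At the filter of 1, eomes.L entered through the treated group alone, with a mean of 5.84 against 0.345 with DMSO. eomes.S had 1 read, in treated library a. tbx1, which acts in the pharyngeal arches, was not called: tbx1.L was at 12.9, 15.5 and 21.0 in the DMSO libraries and at 39.6, 6.23 and 15.3 in the treated ones (log2 fold -0.03 ± 0.68, limma adjusted p = 0.977). tbx1.S was at 6.43, 24.9 and 7.41 against 4.71, 9.78 and 5.72, and lay under the filter. Both overlapped between the groups. tbx18, a gene of the epicardium and somites, had 1 read of the L copy, in DMSO library b, and 1 read of the S copy in each group.

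The 2 homeologs of a pair were compared directly, by testing the change of log2(L + 1) - log2(S + 1) with limma over all 5796 pairs in which both copies had a mean of at least 10. Of the 4 T-box pairs tested, tbxt, tbx15 and tbx3 changed and tbx2 was not called, beside 38.0% of all pairs that changed in either direction. tbxt.L had a treated mean of 0.911 and tbx2.S one of 9.77, while tbx15.L and tbx15.S had DMSO means of 5.21 and 2.43. The tbxt, tbx2 and tbx15 pairs thus entered through the group where these copies were high, and the count is no measure of how the pairs behaved. For tbxt the difference was -0.08, 0.09 and -3.98 with DMSO and -7.73, -5.93 and -7.30 after treatment. Its change was -5.66 ± 1.15 (limma adjusted p = 0.00938). The call held in each of the 6 fits that leave out a library, with an adjusted p of 0.00275 to 0.036, but not against DMSO library c alone (limma adjusted p = 0.132), in which tbxt.L had 0 reads and tbxt.S 12. That fit assumes that the single control varies like the treated group.

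For tbx15 the S copy gained on L, with differences of 0.79, 1.01 and 0.78 in the DMSO libraries and -1.61, -1.23 and -1.54 in the treated ones. The change was -2.32 ± 0.44 (limma adjusted p = 0.00709). The sign was the same within each group and opposite between them. With DMSO it rests on 6, 5 and 4 reads of tbx15.L and 3, 2 and 2 of tbx15.S. At such counts the added 1 shifts the difference, and which copy leads with DMSO is uncertain. Against DMSO library c alone the change was of like size, -2.24 ± 0.61, and was not called (limma adjusted p = 0.094). For tbx3 the difference was 0.15, 0.14 and 0.20 with DMSO and 0.65, 1.76 and 2.29 after treatment. This change of 1.40 ± 0.39 (limma adjusted p = 0.029) did not pass in 5 of the 6 fits that leave out a library. Leaving out a DMSO library gave an adjusted p of 0.0851 for a, 0.0821 for b and 0.0807 for c, and leaving out a treated library gave 0.0777 for b and 0.0654 for c. Without treated library a it was 0.0011. For tbx2 the change was 0.71 ± 0.32 (limma adjusted p = 0.12).

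The copies of tbx5 moved in opposite directions, at low counts. tbx5.L had 2, 1 and 0 reads in the DMSO libraries and 9, 3 and 21 in the treated ones, whereas tbx5.S had 41, 20 and 7 reads in the DMSO libraries and 1, 1 and 0 in the treated ones. The ratio of treated to DMSO totals was 9.74 for tbx5.L (95% exact interval 3.06 to 49.6). Because the mean of tbx5.L was 5.67, neither it nor the pair entered the main test. With a mean of at least 1 required, tbx5.L was higher (log2 fold 2.33, limma adjusted p = 0.0409) and the L to S difference changed by 6.03 ± 0.94 (limma adjusted p = 0.00383), and without a filter the adjusted p was 0.045 and 0.00397. At the filter of 1, tbx5.L likewise entered through the treated group alone, with a mean of 10.4 against 0.958 with DMSO. The authors' deposited table gives adjusted p-values of 0.0389 for tbx5.L and 0.000388 for tbx5.S. In the RefSeq gene table of assembly Xenopus_laevis_v10.1 tbx5 is the neighbour of tbx3 in both subgenomes, with 0 protein-coding genes between them. On the L side tbx3.L fell while tbx5.L was higher at the lower filter, and on the S side both fell.

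**Figure D4:**
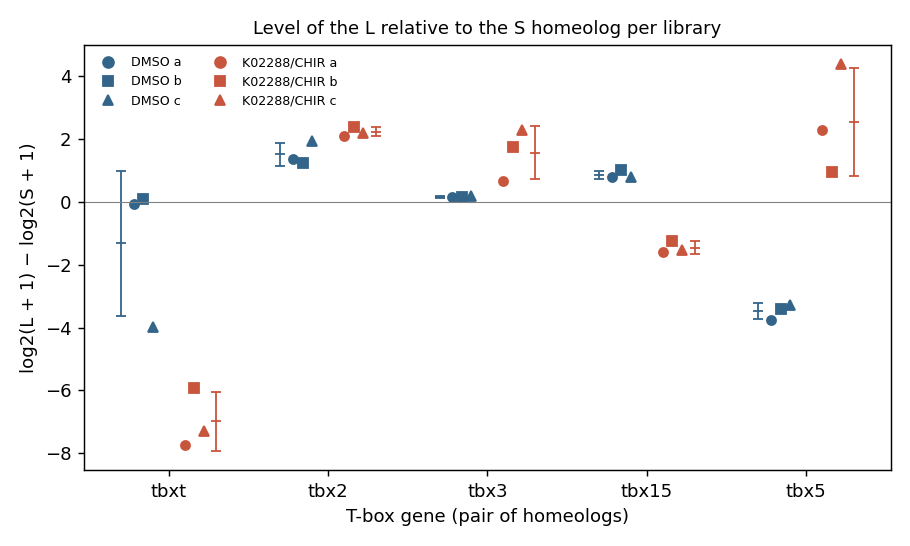
Difference log2(L + 1) - log2(S + 1) of 5 T-box genes, with 1 point per library and the mean ± SD of the 3 libraries of a group beside them. The tbxt and tbx15 points moved down after treatment and the tbx5 points moved up from between -3.77 and -3.27 to between 0.96 and 4.39, while tbx5 was under the filter of the main test.

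Among heart field genes, which work with tbx5, tbx18 and tbx20, 10 of 20 tested homeologs were lower and 4 higher. The median log2 fold of the list was -2.65 beside 0.01 over all genes tested. These and the list counts that follow stand beside 29.7% of all genes lower and 26.1% higher. hand2.L, a factor of heart and arch mesenchyme, went from 450, 305 and 481 to 8.48, 0.889 and 0.954, a log2 fold of -6.95 ± 0.67 (limma adjusted p = 0.000311). gata4.S was at 33.1, 70.4 and 48.2 in the DMSO libraries and had 1 read in the treated ones. popdc2.L, a muscle membrane gene, rose by 2.84 ± 0.37, whereas popdc2.S was not called (log2 fold -0.43, limma adjusted p = 0.362). Of the structural genes of heart muscle, myh6.S was at 60.6, 52.8 and 65.5 with DMSO and at 7.54, 6.23 and 6.68 after treatment, whereas myl7.L and myl7.S had 1 read each, in DMSO library a, and tnnt2.L was at 3.67 or less. myh6.L, the homeolog of myh6.S, was not called (log2 fold 0.92, limma adjusted p = 0.18). The 4 tested heart muscle markers are counted in the heart field list as well, and 2 of them were lower and none higher. The 14 homeologs of the heart muscle list summed to 196 to 462 in the DMSO libraries and 47.1 to 148 in the treated ones. Without DMSO libraries a and b, 5 heart field homeologs were lower and 1 higher.

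BMP response genes, the pathway that K02288 blocks, were lower in 23 of 37 homeologs and higher in 8, with a median of -2.15 (15 and 6 against DMSO library c alone). On the log2 scale bmper.L fell by 3.43, gata3.L fell by 5.03, and msx1.L, a border gene, rose by 2.42 ± 0.18. Wnt response genes were higher in 22 of 28 homeologs and lower in 1, with a median of 2.51. axin2.S, a feedback inhibitor, rose by 4.99 ± 0.21 and tcf7.S by 6.09 ± 0.17, while apcdd1.L fell by 2.93. The homeolog apcdd1.S was called higher, at 2.50 (limma adjusted p = 0.0474). Among partners of tbx2, tbx3 and tbx5 in the dorsal eye and other tissues with graded BMP signalling, 7 of 16 homeologs were lower and 5 higher (median -0.22). bmp4.S went from a mean of 3686 ± 126 to 442 ± 135 and six3.L fell by 4.42, whereas gdf6.S, a BMP ligand gene, had 1 read in the DMSO libraries and was at 441 to 845 in the treated ones.

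Among tailbud and paraxial mesoderm genes, the setting of tbxt and tbx6, 8 of 25 tested homeologs were higher, none was lower by limma, and the median was 1.66, beside 26.1% of all genes higher and 29.7% lower. The median was 0.96 without DMSO library c and 3.17 against DMSO library c alone. With a block for the replicate letter, 9 were higher and 3 lower. The edgeR test gave 9 higher and 1 lower, and 5 were higher and 3 lower without DMSO library c. wnt11.L, a ligand of noncanonical Wnt signalling, had no read in the DMSO libraries and was at 604, 572 and 800.1 in the treated ones, at least 627-fold higher against a floor of 3 counts over the group. By contrast, wnt11b.L of the same list was not called (log2 fold 1.60, limma adjusted p = 0.0791). Nor was any tested copy of cdx1, cdx2 or cdx4. aldh1a2.L, which makes retinoic acid, rose by 2.44 ± 0.52. The bHLH gene msgn1.L, which works with tbx6 in paraxial mesoderm and was chosen after its values were seen, was at 8.27, 100.5 and 0 in the DMSO libraries and at 0 in each treated one, and was not called (limma adjusted p = 0.114). Of 10 tested endomesoderm partners of eomes 7 were higher and 3 lower (median 3.45), and 3 and 2 against DMSO library c alone. cer1.S, a secreted antagonist, went from 6.43, 7.25 and 16.1 to 1825, 280.1 and 745, and hhex.L fell by 6.55. mix1.L and mix1.S, direct endoderm targets, were at 0 to 2.07 throughout.

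Partners of tbx1 and tbx15 in the pharyngeal arches and head mesenchyme were higher in 12 of 25 homeologs and lower in 4. The median was 0.82, and over all genes tested 26.1% were higher and 29.7% lower. twist1.L and twist1.S, mesenchymal regulators that are also in the list of neural crest markers, rose by 8.03 ± 0.39 and 8.92 ± 0.51. dlx6.S rose by 3.45 ± 0.30. foxc1.L, a mesenchymal forkhead gene, fell by 4.06, whereas foxc1.S was not called (log2 fold 0.71, limma adjusted p = 0.292). Of the other T-box family genes 3 homeologs were tested. mga.L, whose protein pairs with MAX, was at 1585, 1440 and 1185 in the DMSO libraries and 3762, 2962 and 3496 in the treated ones, a rise of 1.28 ± 0.16 (limma adjusted p = 0.000756). Below the filter, tbx22.S was at 4.14 to 16.1 in the DMSO libraries and 1.78 to 16.2 in the treated ones, tbx21.L had 9 reads, all in treated libraries, and tbx4.L and tbx4.S had none.

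**Figure D5:**
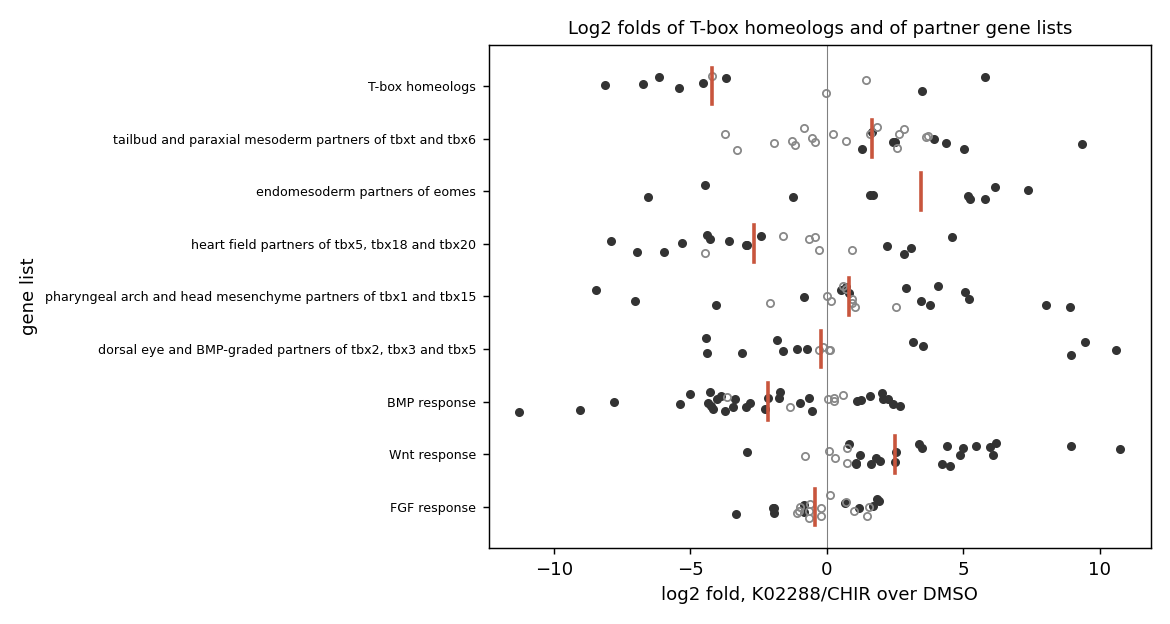
Log2 fold of each tested homeolog, K02288/CHIR over DMSO, for the T-box members and for 8 lists of partner and response genes. Filled points passed an adjusted p under 0.05, open points did not, and bars mark the list medians, which ran from -2.65 for the heart field to 3.45 for the endomesoderm among the partner lists.

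Over the 6 libraries, the genes whose log2 levels ran most closely with tbx3.L were a gene marked provisional c17orf98 (Pearson r = 0.9994), slc22a4.L, a transporter gene (0.9992), and grsf1.S, an RNA-binding protein gene (0.9987). For tbx15.S they were hgh1.L (0.9997), mutyh.L, a DNA repair gene (0.9996), and an unnamed gene model (0.9996). These values describe 6 libraries in 2 groups, where 199 genes for tbx3.L and 436 for tbx15.S exceeded 0.99.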

How the data were processed

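The authors deposited 1 table with a signal per gene and library, namely reads divided by a size factor. Beside it stand a mean, a log2 fold, its standard error and a Wald score, per the file headers, and the authors' p-values and adjusted p-values. DESeq is named per the submitters' processing notes, without a version; no aligner, counter or build is stated in the labels. Of 184429 values above 0, 100% came out as whole reads (tolerance 0.01 reads) when divided by the value of 1 read. Left out were 5 class rows of the counter, which held 10.9% to 12.8% of reads outside genes, 0.439% to 0.716% ambiguous reads and 4.93% to 11.1% that align to several places. In 1 row a broken gene name was rejoined, and 1 line was empty.

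Columns carry the letters a to c, which match no label number. Same-letter libraries deviated together (correlations 0.319 to 0.402, other pairs -0.228 to -0.091), so the letter was used as a block in an alternative. The deviations were taken from each group's mean, so positive same-letter values bring negative ones among the other pairs, which are no separate evidence. Tests were limma 3.58.1 with trend, with edgeR 4.0.16 and DESeq2 1.42.0 on recovered reads as alternatives, in R 4.3.3, and Python 3.11.15 with scipy 1.17.1 for intervals. limma was the main test because the values are normalized. Fold changes on the log2(value + 1) scale understate changes of low genes. Replicates are not stated to be separate clutches, so the spread behind each p-value may be technical. The fits were tested on simulated data. All 18 members matched the RefSeq table by symbol. No sequences were used here.

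The members, 9 partner and response lists and 9 marker lists were chosen with earlier results of these data known. Genes named from a list are up to 3 with the smallest adjusted p and 1 in the other direction, and the 3 genes most correlated with the called member of highest mean in each direction; others are given as values or as chosen after their values were seen.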

Additional observations from a re-analysis of the deposited data

How the results depend on the processing

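The 8 called T-box homeologs kept their direction and call in all 16 or 17 settings fixed with the design in which they were tested. Counts were 2 higher and 6 to 7 lower over the fits with a library left out, and 2 and 6 with the replicate block, which changed no call among the tested homeologs or pairs; the block gave 3 changed pairs. With a mean of at least 1, or no filter, 4 homeologs were higher, and with a mean of at least 50 only tbx15.S was. Pairs changed numbered 2 to 3 over the fits with a library left out. Against DMSO library c alone, chosen after seeing the data, 2 homeologs, both of tbx3, passed as lower. There tbx2.L was at -5.49 ± 1.32 and tbx2.S at -5.79 ± 1.48, close to their values with all libraries but with larger errors, tbx5.S was at -2.64 and tbx20.L at -3.57 (limma adjusted p 0.0529 to 0.0937 for these 4). In that fit, 3 homeologs were higher, tbxt.S among them (adjusted p = 0.0235), and 0 pairs changed (over all genes 2438 higher and 2617 lower, and 393 pairs). tbx1.L, near 0, turned positive under upper quartile scaling (0.17), a pseudocount of 5 (0.03), edgeR (0.33), DESeq2 (0.31), and without DMSO c (0.15) or treated b (0.58), with -0.66 to 0.58 over the fits with a library left out. col9a1.L ran from -0.15 to 0.60 over those fits. Against DMSO c alone tbxt.L was at 0.81, vegt.L at 0.97 and vegt.S at 2.66. The cause was not tested. Upper quartile scaling moved the median of all genes from 0.01 to 0.22 and turned no called T-box homeolog.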

Other observations

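FGF response genes, a pathway that also drives tbxt, were higher in 5 of 24 homeologs and lower in 6, beside 26.1% and 29.7% of all genes, with a median log2 fold of -0.42 beside 0.01 over all genes; upper quartile scaling gave 7 and 3, and DMSO library c alone as control 5 and 0. dusp6.S, a feedback phosphatase, rose by 1.92 ± 0.32, whereas its homeolog dusp6.L fell by 0.82 (limma adjusted p = 0.0266). spry1.S and dusp5.S fell by 3.32 and 1.93, whereas spry1.L (-0.99) and dusp5.L (-0.61) were not called. Without DMSO library c 2 were higher and 5 lower. Neural plate markers were higher in 11 of 14 homeologs and lower in none by limma (11 and 0 in the edgeR test; up to 1 lower when a library was left out), with sox11.L at 5.20 ± 0.24. Of the neural plate list, sox2.L, sox3.L and sox3.S were not called. Blastula pluripotency markers divided evenly, with 4 of 17 higher and 4 lower. Without DMSO library c 1 was higher and 3 lower.

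Markers of other tissues were mostly under the filter. Of 7 tested skeletal muscle markers 1 was higher and 2 lower, of 3 notochord markers 2 were higher, of 5 endoderm markers 3 were higher and 1 lower, and of 6 blood and endothelium markers 1 was higher and 2 lower (1 to 2 and 0 to 2 when a library was left out). The higher muscle marker was myod1.S, at 3.77, 90.7 and 15.3 after treatment (limma adjusted p = 0.0453). It did not pass when any library but treated a was left out (limma adjusted p 0.054 to 0.126). The endoderm regulators sox17a.L and sox17a.S were at 0 to 4.14 in the 6 libraries.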
